A study of Homo sapiens with 4 samples.

Results

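Actin filaments and the myosin motors that pull on them give an epithelial cell its shape, its grip on the matrix and its ability to contract. Of these genes 43 were followed in FaDu, an established squamous carcinoma line from the hypopharynx, among the 25548 gene symbols of the deposited expression table. They were taken by name: actins, myosin chains, tropomyosins, calponin-like proteins, crosslinkers, adhesion proteins, regulators of filament turnover, and the transcription factor SRF with its cofactor MKL1. The list was drawn up with earlier results of these data known. The treated cells received Aza, a cytidine analogue that depletes DNA methyltransferases, at 5 µM on days 1 to 3. They also received TSA (trichostatin A), which blocks histone deacetylases, at 100 nM on day 3. The control cells received the vehicles instead, DMSO for Aza and ethanol for TSA, and are called DMSO here, as in their label. Messenger RNA was sequenced from 1 library of each group, so no difference has a replicate check and no p-value is given. The columns of the table summed to 516692 FPKM in the treated library and 491963 FPKM in the DMSO library, where FPKM is fragments per kilobase of transcript scaled to the mapped fragments of the library, and the read depth is unknown.

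As background, actin monomers are held in reserve by thymosins and profilin, assembled with the help of the Arp2/3 complex, cut by cofilin, bundled by alpha-actinins and filamins, and wrapped by tropomyosins. Monomeric actin also binds MKL1 (now named MRTFA) and keeps it out of the nucleus. When filaments form, MKL1 is released and joins SRF at a DNA element called the CArG box, which lies near the start of many actin and contractile genes. Smooth muscle uses its own paralogues of several of these proteins, among them ACTA2, ACTG2, MYL9, TAGLN and CNN1, which many non-muscle cells also make at low levels.

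The promoter of the table used here is the stretch from 250 bases before to 50 bases after a transcript start in RefSeq, on the build GRCh38.p14, and 38 of the 43 genes had at least 1 such stretch. ACTB, MYL9, TAGLN, VIL1 and ARPC1B had none. A CArG box, searched as its 10-base consensus on both strands, stood in a promoter of 9 of the 38 genes (23.7%), against 1.60% of the 27305 genes of that table. A gene with more windows has more places for a box, and over single windows the shares were 15.7% of 70 and 1.29% of 35116. The 9 were ACTG1, ACTG2, ACTN1, MYLK, TPM4, CNN2, FLNA, SRF and FHL2. The windows of 6 of them are shown because they hold the element that SRF reads, in genes that differed by 2-fold (the first 4) and in genes that did not (the last pair). Each is given 5′ to 3′ on the gene's own strand, with the box in capitals.
ACTG2, chr2:73892758-73893057, plus strand: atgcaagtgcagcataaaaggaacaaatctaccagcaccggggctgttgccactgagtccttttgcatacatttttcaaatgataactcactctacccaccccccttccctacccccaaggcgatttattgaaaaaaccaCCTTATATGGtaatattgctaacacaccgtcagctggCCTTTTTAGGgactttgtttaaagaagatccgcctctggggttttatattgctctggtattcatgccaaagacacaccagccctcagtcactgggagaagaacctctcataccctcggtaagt
SRF, chr6:43171019-43171318, plus strand: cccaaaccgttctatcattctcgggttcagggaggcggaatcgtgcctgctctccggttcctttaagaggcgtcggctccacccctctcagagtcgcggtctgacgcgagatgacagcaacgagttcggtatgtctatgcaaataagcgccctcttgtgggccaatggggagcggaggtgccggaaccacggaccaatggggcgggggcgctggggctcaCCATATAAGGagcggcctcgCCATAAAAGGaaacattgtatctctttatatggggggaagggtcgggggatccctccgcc
FLNA, chrX:154374585-154374884, minus strand: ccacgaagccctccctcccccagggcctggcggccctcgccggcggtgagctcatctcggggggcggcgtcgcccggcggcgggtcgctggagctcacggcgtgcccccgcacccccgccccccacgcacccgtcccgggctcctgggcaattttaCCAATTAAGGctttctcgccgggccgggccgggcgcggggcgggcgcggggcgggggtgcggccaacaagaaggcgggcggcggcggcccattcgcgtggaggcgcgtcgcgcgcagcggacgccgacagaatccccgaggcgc
CNN2, chr19:1026358-1026657, plus strand: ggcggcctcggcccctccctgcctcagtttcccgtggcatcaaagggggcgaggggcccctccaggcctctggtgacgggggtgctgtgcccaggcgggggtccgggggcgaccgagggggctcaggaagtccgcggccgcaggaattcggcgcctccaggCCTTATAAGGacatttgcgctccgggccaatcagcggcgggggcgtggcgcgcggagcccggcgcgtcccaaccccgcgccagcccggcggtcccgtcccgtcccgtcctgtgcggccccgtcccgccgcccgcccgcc
ACTG1, chr17:81512750-81513049, minus strand: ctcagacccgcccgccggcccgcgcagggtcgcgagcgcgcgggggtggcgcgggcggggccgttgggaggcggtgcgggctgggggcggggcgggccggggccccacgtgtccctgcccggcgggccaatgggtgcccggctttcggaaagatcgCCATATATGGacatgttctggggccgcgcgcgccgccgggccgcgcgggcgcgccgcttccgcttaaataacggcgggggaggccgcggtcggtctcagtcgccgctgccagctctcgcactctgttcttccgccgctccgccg
MYLK, chr3:123620499-123620798, minus strand: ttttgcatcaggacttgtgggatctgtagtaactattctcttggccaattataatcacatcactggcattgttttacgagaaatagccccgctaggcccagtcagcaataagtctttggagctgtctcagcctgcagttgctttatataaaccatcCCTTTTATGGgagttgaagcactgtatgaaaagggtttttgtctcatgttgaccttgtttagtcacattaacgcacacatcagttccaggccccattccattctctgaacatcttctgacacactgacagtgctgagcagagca

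The boxes in the windows of CNN2, ACTG1, FLNA and MYLK began 89, 94, 94 and 94 bases before the start. ACTG2 and SRF had 2 boxes each, and those of SRF lay within 30 bases of its start. The windows differed in CpG, the dinucleotide that DNA methyltransferases modify, with 50 in ACTG1, 47 in FLNA, 38 in CNN2 and 23 in SRF, but 5 in ACTG2 and 3 in MYLK. Over the 38 genes the richest window held a median of 29.5 CpG, against 16 over all genes of the promoter table. A richest window depends on the number of windows of a gene, and over single windows the medians were 22 and 14. A matching element is a description of the sequence and does not show that SRF was bound there.

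The actin and contractile genes were mostly higher in the treated library. Of the 43 genes 41 were measured, meaning at least 1 FPKM in either library, and 38 of the 41 had a positive change, against 56.0% of all 13558 measured genes. Change here is the log2 ratio of treated to DMSO after 1 FPKM was added to each, a scale that shrinks differences between low values. The median change was 0.75 over the 41 genes and 0.13 over all measured genes. At least 2-fold higher were 13 of the 41 (31.7%), against 16.1% of all measured genes, and 1 was at least 2-fold lower, against 5.21%. Of the 13, ACTG2, TAGLN and CORO1A reached 1 FPKM in the treated library alone, so the count depends in part on the filter. MYLK, not 2-fold different, reached it in the DMSO library alone. The list was chosen with earlier results of these data known, so these shares are a description and not a test. In bulk RNA fewer cells that express a gene and less RNA per cell cannot be told apart.

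**Figure D1:**
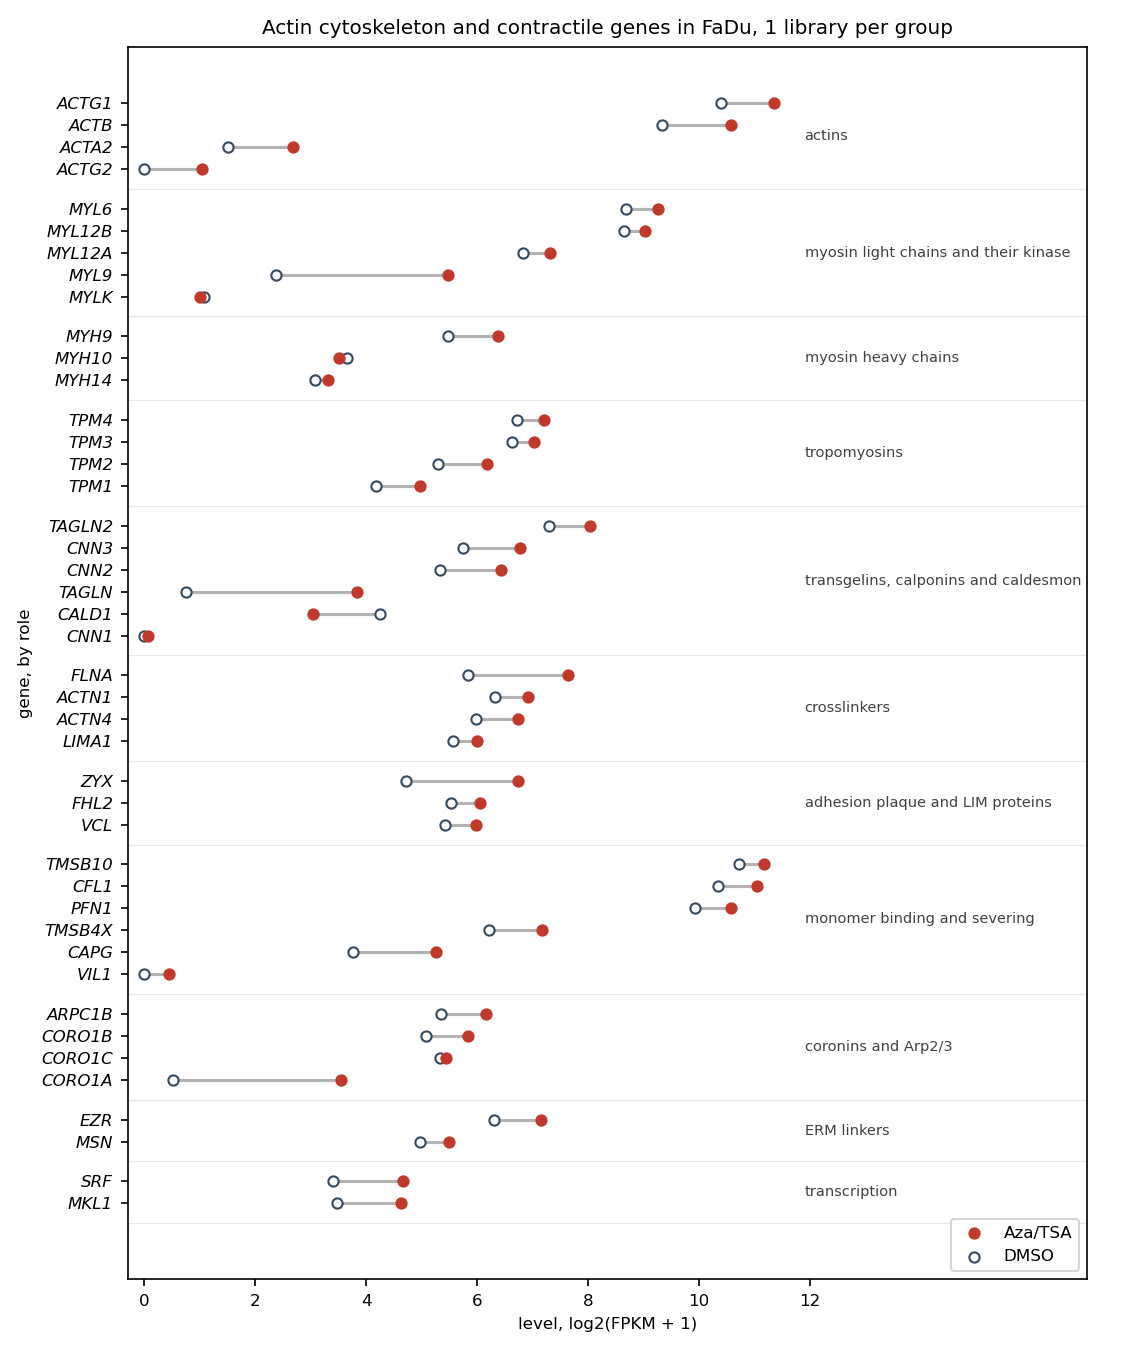
Level of each of the 43 genes as log2(FPKM + 1), grouped by role; filled points are the Aza/TSA library and open points the DMSO library, with 1 library per group. The filled point lies to the right of the open one for 40 genes, and MYLK, MYH10 and CALD1 are the exceptions.

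Most of these genes are abundant, so they were also set against genes of like level. Among genes with a mean of at least 10 FPKM over both libraries, 9 of 35 actin and contractile genes were at least 2-fold higher, against 14.2% of all 6095 such genes, and 1 was lower, against 5.3%. At a mean of 100 FPKM or more, 2 of 14 were at least 2-fold higher, close to the 14.3% of all genes at that level, while their median change was 0.67 against 0.14. A positive change in nearly every gene, most of them under 2-fold, and wide changes in a few made up the pattern.

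The change in these libraries also followed base composition. Over the 7127 genes that reached 5 FPKM in each library, the Spearman correlation of the change with the GC content of the longest transcript was 0.675, and over the 41 genes it was 0.622. These are correlations across genes of the same pair of libraries, and genes are not replicates. The 41 genes had a median GC content of 55.6%, against 48.8% over measured genes. After the GC trend was subtracted, 35 of the 41 still had a positive change, against 51.3% of all genes with a GC value, and the median was 0.39 against 0.02. At least 2-fold higher were then 5 of 41 (12.2%), against 7.41% of all genes, and none was 2-fold lower, against 4.26%. The 5 were MYL9, TAGLN, CORO1A, ZYX and CNN3, of which TAGLN and CORO1A reached 1 FPKM in the treated library alone. At a mean of 10 FPKM or more, 31 of 35 had a positive change after GC correction, against 53.3% of all 5890 such genes. The medians were 0.37 and 0.03. At least 2-fold higher were 3 of the 35 (8.57%), and the share of all genes at that level was not computed after correction. Whether the GC trend is technical or part of the response was not tested, so the change after GC correction is given beside the change as deposited for each measured gene of the group.

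**Figure D2:**
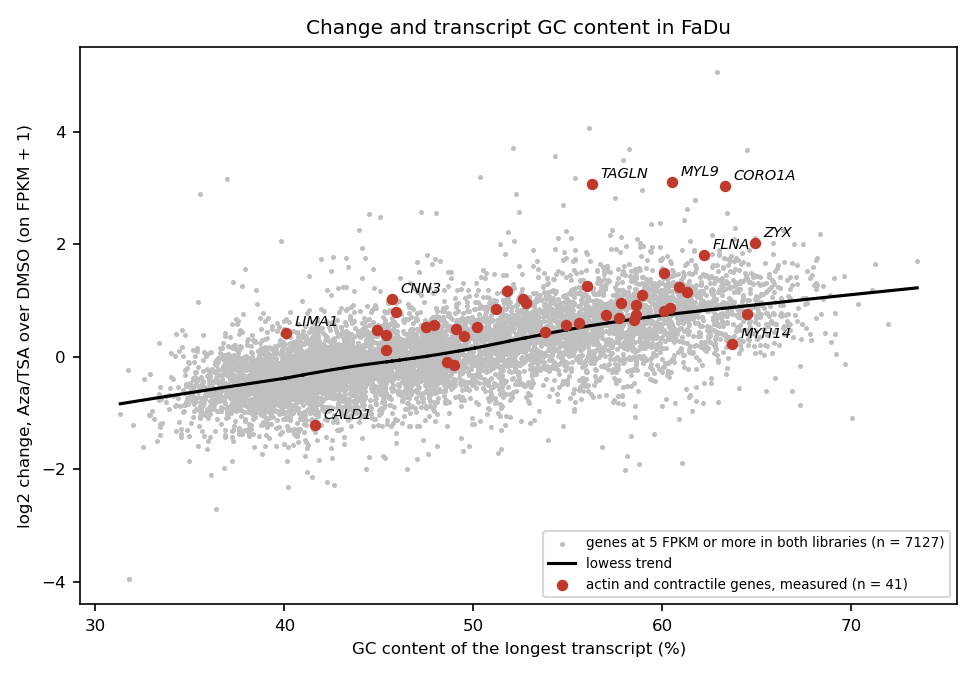
Log2 change (Aza/TSA over DMSO, on FPKM + 1) against the GC content of the longest transcript in percent; grey points are the 7127 genes that reached 5 FPKM in each library, the line is their lowess trend and red points are the 41 measured actin and contractile genes. The trend rises with GC content, 35 red points lie above it, and TAGLN, MYL9 and CORO1A lie farthest above.

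Actins make the filament itself. ACTB, the beta isoform of non-muscle cells, was 1529 FPKM in the treated library and 641 FPKM in the DMSO library, a change of 1.25 (0.71 after GC correction). ACTG1, the gamma isoform, was 2612 FPKM in the treated library and 1344 FPKM in the DMSO library, a change of 0.96 (0.32 after GC correction). ACTG1 therefore missed the 2-fold mark that ACTB passed, and neither passed it after correction. Their coding sequences are very similar and reads can be split between them and their processed pseudogenes, so the level of each is uncertain.

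The 4 actins together were 4148 FPKM in the treated library and 1987 FPKM in the DMSO library, a change of 1.06 in the sum. ACTA2, the smooth muscle alpha actin, was 5.38 FPKM in the treated library and 1.84 FPKM in the DMSO library (change 1.17, or 0.89 after GC correction). ACTG2, the smooth muscle gamma actin, was 1.04 FPKM in the treated library and listed at 0 in the DMSO library. It was called 2-fold higher on the FPKM + 1 scale only just (change 1.03, or 0.70 after GC correction), and a value near 1 FPKM can rest on few reads. The muscle isoforms remained a trace of the total, with ACTA2 at 0.130% of summed actin FPKM in the treated library and 0.0927% in the DMSO library.

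Myosin II is built from heavy chains, essential light chains and regulatory light chains, and MYLK phosphorylates the regulatory ones to switch the motor on. MYL9, the regulatory chain typical of smooth muscle and contractile cells, was 43.7 FPKM in the treated library and 4.21 FPKM in the DMSO library, a change of 3.10 that stayed at 2.34 after GC correction. The non-muscle regulatory chain MYL12A was 158 FPKM in the treated library and 113 FPKM in the DMSO library (change 0.48, or 0.59 after GC correction), and its near-identical neighbour MYL12B was 520 FPKM treated and 401 FPKM with DMSO (change 0.37, or 0.26 after GC correction). MYL9 thus stood apart from its paralogues, at 6.05% of the summed regulatory chains in the treated library and 0.811% in the DMSO library. Reads of MYL12A and MYL12B are hard to separate.

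The essential light chain MYL6 was 609 FPKM in the treated library and 412 FPKM in the DMSO library (change 0.56, or 0.08 after GC correction). The kinase MYLK was 0.992 FPKM in the treated library and 1.11 FPKM in the DMSO library, a change of -0.09 (-0.15 after GC correction). Of the heavy chains, MYH9 was 82.4 FPKM in the treated library and 43.3 FPKM in the DMSO library (change 0.91, or 0.24 after GC correction). None of these passed 2-fold. MYH10 was 10.4 FPKM in the treated library and 11.6 FPKM in the DMSO library (change -0.14, or -0.23 after GC correction), and MYH14 was 8.86 FPKM treated and 7.41 FPKM with DMSO (change 0.23, with the sign turned to -0.65 after GC correction). MYH9 made up 81.1% of summed heavy chain FPKM in the treated library and 69.5% in the DMSO library, so the non-muscle IIA form was the main heavy chain in both.

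Tropomyosins lie along the filament and decide which proteins reach it. None of the 4 was 2-fold different, and all 4 had a positive change, also after GC correction. TPM2 was 70.9 FPKM in the treated library and 38.4 FPKM in the DMSO library (change 0.87, or 0.11 after GC correction). TPM1 was 30.4 FPKM in the treated library and 17.1 FPKM in the DMSO library, and here the change was 0.80 before GC correction and 0.87 after it. TPM4, the highest of the 4 in FPKM in both libraries, was 146 FPKM in the treated library and 104 FPKM in the DMSO library (change 0.49, or 0.39 after GC correction). TPM3, which has processed pseudogenes too, was 129 FPKM treated and 98.3 FPKM with DMSO (change 0.39, or 0.48 after GC correction). These are sums over the isoforms of each gene, which differ between muscle and non-muscle cells and were not separated in the table.

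Transgelins, calponins and caldesmon bind the side of the filament, and their changes ran in both directions. TAGLN (SM22), an early marker of smooth muscle and of cells gaining contractile features, was 13.2 FPKM in the treated library and 0.686 FPKM in the DMSO library, a change of 3.07 that stayed at 2.52 after GC correction. Its widely expressed paralogue TAGLN2 was 260 FPKM in the treated library and 156 FPKM in the DMSO library (change 0.74, or 0.14 after GC correction). TAGLN was 4.82% of the summed transgelins in the treated library and 0.439% in the DMSO library, so TAGLN2 stayed the main form. CNN2 was 84.7 FPKM in the treated library and 39.0 FPKM in the DMSO library (change 1.10, or 0.41 after GC correction).

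CNN3, the acidic calponin, was 108 FPKM in the treated library and 52.3 FPKM in the DMSO library (change 1.03, or 1.11 after GC correction). It was the 1 gene of the 13 whose change was larger after correction, with a longest transcript of 45.7% GC, but it came just short of 2-fold when the libraries were rescaled to equal totals or to an equal median. CNN1, the smooth muscle calponin, was 0.0431 FPKM in the treated library, had 0 in the DMSO library, and did not count as measured. CALD1, which restrains the myosin motor and stabilises filaments, was the 1 gene at least 2-fold lower, at 7.22 FPKM in the treated library and 18.1 FPKM in the DMSO library (change -1.21). After GC correction its change was -0.93, short of 2-fold.

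**Figure D3:**
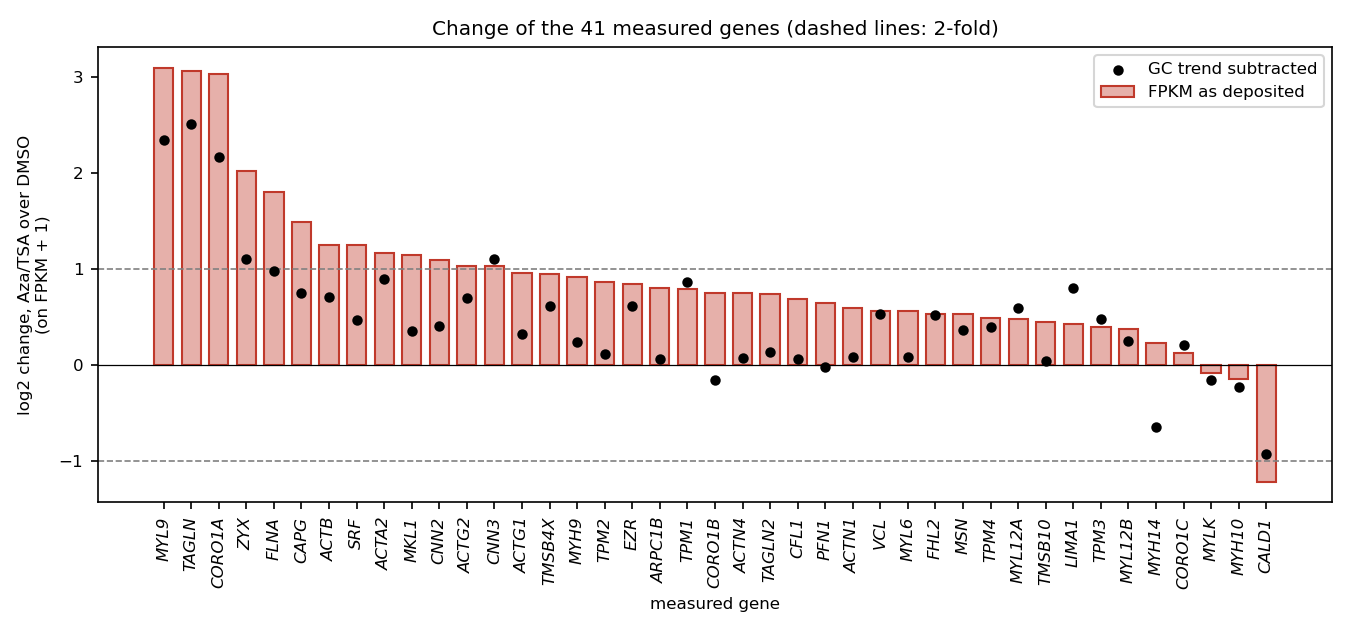
Log2 change of the 41 measured genes (Aza/TSA over DMSO, on FPKM + 1; bars for FPKM as deposited, points after subtraction of the GC trend), ordered by size, with dashed lines at 2-fold. The bars of 13 genes reach the upper line and that of CALD1 the lower, while 5 points reach the upper line and none the lower.

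Crosslinkers tie filaments into bundles and nets. FLNA, which also anchors filaments to integrins, was 199 FPKM in the treated library and 56.3 FPKM in the DMSO library, a change of 1.80 that came to 0.98 after GC correction, just under 2-fold. The alpha-actinins ACTN1 and ACTN4 had smaller changes. ACTN1 was 120 FPKM in the treated library and 79.0 FPKM in the DMSO library (change 0.60, or 0.08 after GC correction), and ACTN4 was 105 FPKM treated and 62.4 FPKM with DMSO (change 0.75, or 0.07 after GC correction). LIMA1 (EPLIN), which links cadherin junctions to actin, was 62.7 FPKM in the treated library and 46.4 FPKM in the DMSO library (change 0.43, or 0.80 after GC correction).

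At adhesion sites, ZYX (zyxin), which gathers at focal adhesions and stress fibres under tension, was 106 FPKM in the treated library and 25.2 FPKM in the DMSO library. Its change was 2.02, and 1.10 after GC correction. VCL (vinculin), which couples talin to actin, was 62.1 FPKM in the treated library and 41.7 FPKM in the DMSO library (change 0.56). FHL2, a LIM protein that binds integrins and is itself a target of SRF, was 65.4 FPKM in the treated library and 45.0 FPKM in the DMSO library (change 0.53). Zyxin was therefore the member of this trio past 2-fold, and the other two had changes of like size before and after correction, at 0.54 for VCL and 0.52 for FHL2 after it.

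The genes that hold and recycle monomers include 3 of the 5 that passed 1000 FPKM in the treated library, and these 3 had changes near 0 after GC correction. TMSB10, a thymosin that sequesters monomers, was 2295 FPKM in the treated library and 1682 FPKM in the DMSO library (change 0.45, or 0.04 after GC correction). CFL1 (cofilin), which severs old filaments, was 2101 FPKM in the treated library and 1299 FPKM in the DMSO library (change 0.69, or 0.06 after GC correction). PFN1 (profilin), which feeds monomers to growing ends, was 1523 FPKM in the treated library and 969 FPKM in the DMSO library (change 0.65, or -0.02 after GC correction). These 3 genes have processed pseudogenes that can take reads.

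TMSB4X, the second thymosin, was 142 FPKM in the treated library and 72.8 FPKM in the DMSO library (change 0.96, or 0.62 after GC correction). CAPG, a capping protein of the gelsolin family, was 37.0 FPKM in the treated library and 12.5 FPKM in the DMSO library, a change of 1.49 (0.75 after GC correction), and was the 1 gene of this set past 2-fold. VIL1 (villin), the bundling protein of intestinal microvilli, was 0.352 FPKM in the treated library and listed at 0 in the DMSO library, and was not measured.

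Coronins act with cofilin and the Arp2/3 complex to turn over branched actin. CORO1A, the leukocyte coronin, was 10.7 FPKM in the treated library and 0.425 FPKM in the DMSO library, a change of 3.04 that stayed at 2.17 after GC correction. The more widely expressed coronins had smaller changes. CORO1B was 56.1 FPKM in the treated library and 32.9 FPKM in the DMSO library (change 0.75, with the sign turned to -0.15 after GC correction). CORO1C was 42.6 FPKM in the treated library and 39.0 FPKM in the DMSO library (change 0.12, or 0.22 after GC correction). CORO1A was 9.77% of the 3 coronins summed in the treated library and 0.588% in the DMSO library. ARPC1B, an Arp2/3 subunit, was 70.4 FPKM in the treated library and 39.9 FPKM in the DMSO library (change 0.81, or 0.07 after GC correction).

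The ERM proteins link filaments to the plasma membrane. EZR (ezrin), the epithelial form, was 141 FPKM in the treated library and 78.1 FPKM in the DMSO library (change 0.85, or 0.62 after GC correction). MSN (moesin) was 44.1 FPKM in the treated library and 30.3 FPKM in the DMSO library (change 0.53, or 0.37 after GC correction). Neither was 2-fold different.

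The transcription factor pair was itself higher. SRF was 24.2 FPKM in the treated library and 9.59 FPKM in the DMSO library (change 1.25, or 0.47 after GC correction). MKL1 was 23.6 FPKM in the treated library and 10.1 FPKM in the DMSO library (change 1.14, or 0.35 after GC correction). Both passed 2-fold as deposited and neither after correction. Of the 9 measured genes with a CArG box in the sequences above or in another promoter window, 4 were at least 2-fold higher, and their median change was 0.96. That is 44.4%, against 16.1% of all measured genes. The 4 include ACTG2, which was 1.04 FPKM in the treated library and 0 in the DMSO library. Of the 28 measured genes with a promoter and no exact box, 6 (21.4%) were higher and 1 (3.57%) was lower (median 0.72), against 5.21% lower over all measured genes. No exact box does not mean no similar element. ACTA2 and ZYX, among the 6, had elements with 1 mismatch, as did CALD1, ACTN4 and MYL12A. After GC correction the medians were 0.41 with a box and 0.30 without. Of all genes with a GC value 7.41% were then 2-fold higher, beside none of the 9 with a box and 3 of the 28 without (10.7%). MYL9, TAGLN, ACTB and ARPC1B are in neither count. These counts are a description of few genes, and no difference between them was tested.

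**Figure D4:**
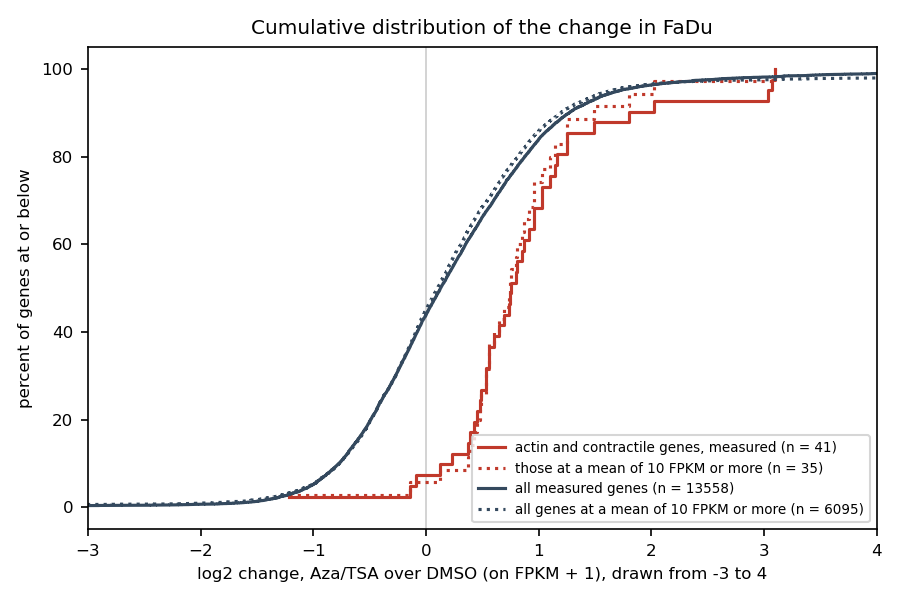
Percent of genes at or below each log2 change (Aza/TSA over DMSO, on FPKM + 1), for the 41 measured actin and contractile genes, the 35 of them at a mean of 10 FPKM or more, and all genes at the same filters. The red curves lie to the right of the dark ones over most of the range, with medians of 0.75 and 0.13 for the solid curves.

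Other genes of the pathway were read from lists of their known roles, which were chosen with earlier results of these data known. For comparison, 16.1% of all measured genes were 2-fold higher and 5.21% lower, and after GC correction 7.41% and 4.26%. Of 21 measured further SRF and MRTF targets and cofactors, 7 were at least 2-fold higher and 2 lower, with a median of 0.07 (after GC correction 3 higher, 3 lower and a median of 0.04). The widest change was that of ITGA5, a fibronectin receptor subunit, at 30.3 FPKM in the treated library and 6.34 FPKM in the DMSO library. Next came SMTN (smoothelin) at 11.6 FPKM treated and 2.01 FPKM with DMSO, PDLIM7 at 52.4 FPKM treated and 13.4 FPKM with DMSO, and FHL1 at 7.82 FPKM treated and 1.72 FPKM with DMSO. The median of this list lay below the 0.13 of all measured genes, although its share of 2-fold higher genes, 33.3%, was above theirs. The list summed to 1699 FPKM in the treated library and 2072 FPKM in the DMSO library. FOS, its highest gene in each library, was 591 FPKM treated and 829 FPKM with DMSO. MYOCD, the muscle-restricted partner of SRF, was listed at 0 in both libraries.

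Of 22 focal adhesion plaque genes, 6 were higher (27.3%, against 16.1% of all measured genes) and 1 lower, with a median of 0.57. After GC correction 1 of the 22 was higher and 0 lower, with a median of 0.21. BCAR1 (p130Cas) led them at 40.1 FPKM in the treated library and 8.50 FPKM in the DMSO library, followed by SORBS3 at 14.4 FPKM treated and 4.48 FPKM with DMSO, paxillin (PXN) at 118 FPKM treated and 42.1 FPKM with DMSO, and CSRP1 at 62.5 FPKM treated and 26.8 FPKM with DMSO.

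Of 26 other crosslinkers and membrane linkers, 8 were at least 2-fold higher and 1 lower (median 0.38, or 4 higher, 1 lower and a median of 0.13 after GC correction). The 8 were 30.8%, against 16.1% of all measured genes. The muscle filamin FLNC was 7.94 FPKM in the treated library and 0.135 FPKM in the DMSO library, a wider change than that of FLNA. DBN1 (drebrin) was 26.2 FPKM treated and 4.15 FPKM with DMSO, and MARCKSL1 was 57.6 FPKM treated and 14.9 FPKM with DMSO, while PALLD (palladin) was lower, at 6.02 FPKM treated and 18.1 FPKM with DMSO. Of 44 other nucleation and turnover factors, 7 were higher and 2 lower (median 0.10, or 3 higher, 1 lower and a median of -0.05 after GC correction), a share of 15.9% that is near the 16.1% of all measured genes. CORO6 was 7.55 FPKM in the treated library and 0.978 FPKM in the DMSO library, the filament elongation factor VASP was 73.0 FPKM treated and 19.4 FPKM with DMSO, and the formin FMNL1 was 1.93 FPKM treated and 0.0792 FPKM with DMSO. The formin DIAPH2 was lower, at 0.730 FPKM treated and 3.66 FPKM with DMSO. Of 17 other myosins, 3 were higher (17.6%, near the 16.1% of all measured genes) and 0 lower, with a median of 0.21. After GC correction 0 of the 17 were called in either direction, with a median of -0.10. The cardiac light chain MYL7 was 1.82 FPKM in the treated library and 0 in the DMSO library. MYL2, another cardiac light chain, was 1.52 FPKM in the treated library and 0 in the DMSO library. Both reached 1 FPKM in the treated library alone, where a value can rest on few reads. With a pseudocount of 5, 0 of the other myosins were called higher. MYO1C was 55.3 FPKM in the treated library and 25.9 FPKM in the DMSO library.

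**Figure D5:**
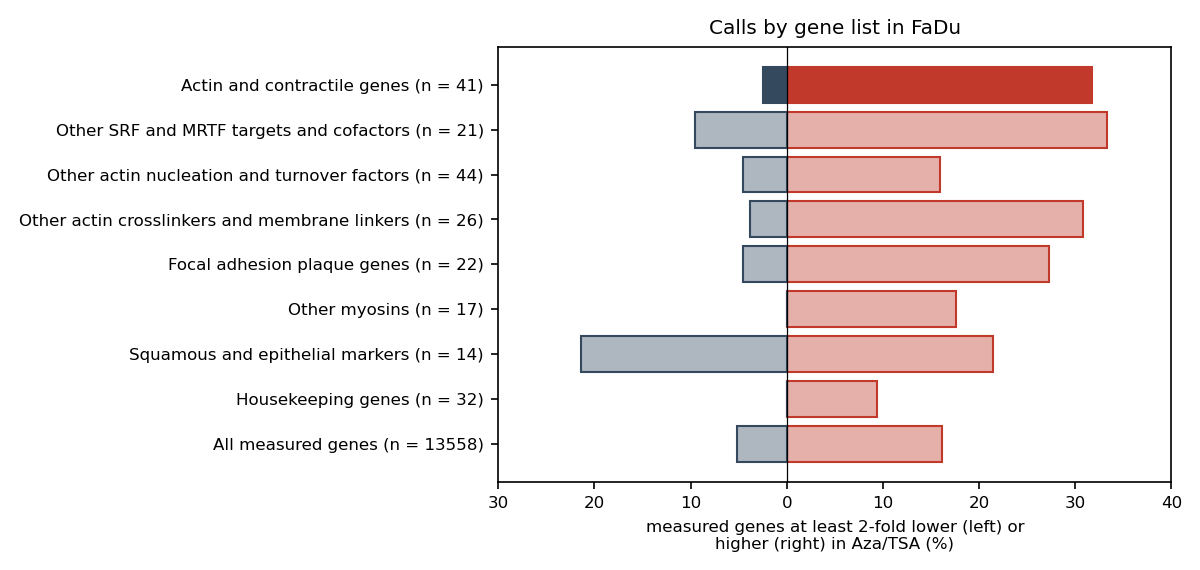
Percent of measured genes at least 2-fold higher (to the right of 0) or lower (to the left) in the Aza/TSA library, for the actin and contractile genes, for other gene lists described in the text and for all measured genes. The actin and contractile bar reaches 31.7% on the right, against 16.1% for all measured genes.

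Markers of the cell types in which the muscle, leukocyte and intestinal paralogues are best known were mostly near 0. Of 11 smooth muscle markers, 9 were under 1 FPKM in each library, and the list summed to 15.5 FPKM in the treated library and 4.71 FPKM in the DMSO library, and SMTN made up 11.6 FPKM treated and 2.01 FPKM with DMSO of these sums. Of the 2 measured smooth muscle markers 1, SMTN, was 2-fold higher, also after GC correction (change 2.06, or 1.17 after it). Over all measured genes 16.1% were 2-fold higher and 5.21% lower, and after GC correction 7.41% and 4.26%. MYOCD and PLN were at 0 in both libraries, and the smooth muscle myosin MYH11 was 0.493 FPKM in the treated library and 0.185 FPKM in the DMSO library. Fibroblast markers summed to 7.16 FPKM in the treated library and 3.67 FPKM in the DMSO library over 12 genes, with PDGFRA at 0 in both. THY1 was 1.55 FPKM in the treated library and listed at 0 in the DMSO library, COL1A1 was 3.08 FPKM treated and 0.749 FPKM with DMSO, and TWIST1 was 1.87 FPKM treated and 2.85 FPKM with DMSO. Of these 3 measured fibroblast markers 2 were 2-fold higher and 0 lower, and after GC correction 0 were higher and 1 was lower. The higher ones, THY1 and COL1A1, reached 1 FPKM in the treated library alone. The median change over all 12 was 0.04. The 15 striated muscle markers summed to 33.8 FPKM in the treated library and 34.8 FPKM in the DMSO library, with MYOG at 0 in both. The widest of them were TNNT1, which is also among the SRF targets as SMTN is, at 13.2 FPKM treated and 3.71 FPKM with DMSO, CKM at 1.35 FPKM treated and 0 FPKM with DMSO, TNNI2 at 13.2 FPKM treated and 25.1 FPKM with DMSO, and MB at 2.05 FPKM treated and 3.07 FPKM with DMSO. Of the 5 measured striated muscle markers 2 were 2-fold higher and 0 lower, and after GC correction 0 were higher and 1 was lower.

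Beside CORO1A, the 16 leukocyte markers summed to 110 FPKM in the treated library and 40.2 FPKM in the DMSO library. CD68 alone was 51.3 FPKM of the treated sum and 13.0 FPKM of the DMSO sum, so the sums do not describe the markers evenly. Of the 7 measured 5 were at least 2-fold higher, against 16.1% of all measured genes. After GC correction 3 of the 7 were, without CD3D and CD14, and with a pseudocount of 5 only 1 was. LAPTM5, ITGB2 and CD3D reached 1 FPKM in the treated library alone, so the 5 of 7 depends in part on the filter. The median change over all 16 was 0.20, against 1.22 over the 7. CD68, which many cells express, was 51.3 FPKM in the treated library and 13.0 FPKM in the DMSO library, LAPTM5 was 3.16 FPKM treated and 0.0585 FPKM with DMSO, ITGB2 was 5.64 FPKM treated and 0.989 FPKM with DMSO, and CD3D was 1.33 FPKM treated and 0 FPKM with DMSO. The pan-leukocyte marker PTPRC was 0.0385 FPKM in the treated library and 0.0513 FPKM in the DMSO library, near 0 in both. Beside VIL1, 10 of 12 intestinal markers were under 1 FPKM in the treated library and all 12 in the DMSO library. The exceptions were KRT20 at 11.4 FPKM in the treated library and 0.0744 FPKM in the DMSO library, and MUC2 at 9.81 FPKM treated and 0.0353 FPKM with DMSO. Both stayed over 2-fold higher after GC correction. FABP1, SI and PHGR1 were at 0 in both libraries.

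The labelled cell type was checked on 14 squamous and epithelial markers, and 14 of 14 reached 1 FPKM in each library. They did not move together, with 3 at least 2-fold higher (21.4%, against 16.1% of all measured genes) and 3 lower (against 5.21%). Their median was 0.11. After GC correction 1 was higher and 4 were lower (median -0.54), against 7.41% and 4.26% of all genes. DSG3 was 3.16 FPKM in the treated library and 22.1 FPKM in the DMSO library, TP63 was 23.2 FPKM treated and 73.7 FPKM with DMSO, KRT5 was 226 FPKM treated and 687 FPKM with DMSO, and KRT8 was higher, at 1356 FPKM treated and 459 FPKM with DMSO. Of 32 housekeeping genes 3 were at least 2-fold higher (9.38%, against 16.1% of all measured genes) and none lower, with a median change of 0.05. After GC correction 0 were 2-fold different in either direction (median -0.05). The 3 were VCP at 91.3 FPKM in the treated library and 40.0 FPKM in the DMSO library, UBB at 1186 FPKM treated and 536 FPKM with DMSO, and POLR2A at 90.9 FPKM treated and 41.5 FPKM with DMSO. PSMB4, at 225 FPKM treated and 113 FPKM with DMSO, came next and missed 2-fold. The part of these markers in the changes of the actin and contractile genes was not tested.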

How the data were processed

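RNA of FaDu cells was made into 1 library per group with a stranded mRNA kit, per the labels' protocols. The authors deposited 1 table of FPKM per gene symbol, per the file headers. TopHat 1.3.2, Cufflinks 2.0.2 and hg19 are named in the submitters' processing notes. The annotation and filters behind the table are not known here. The UMSCC47 columns of the table were not analysed for any gene, because their values did not follow the gene names: their Spearman correlation with the FaDu DMSO column was 0.110 and 0.113, against 0.909 for the treated FaDu column.

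For FaDu, 45 repeated rows were summed. A gene was called at a 2-fold difference on log2(FPKM + 1), if at least 1 FPKM in either library. FPKM do not give read numbers. The values of 143 short RNA genes were searched for ratios between libraries that are ratios of whole numbers (up to 6, within 0.01%). At the best scale of treated over DMSO, 0.9998, 38.5% of the genes had such a ratio, and the median over the scales tried was 0%. No read numbers were derived from these ratios. Transcript GC content and length came from GENCODE 29 (another build, so no coordinates were used), for the longest protein-coding transcript, with older symbols matched for 92.4% of measured genes. A lowess trend (fraction 0.3, statsmodels 0.14.6) over genes that reached 5 FPKM in each library was subtracted. The subtraction was tried first on simulated data whose true changes did not depend on GC content. That trial cannot show how it acts where the response itself follows GC content. Promoter sequences are RefSeq's on GRCh38.p14. Genes named are all members, and up to 4 measured genes of each other list with the widest change, apart from 1 list and 1 gene that are not reported here. MYOCD, FOS, PLN, MYH11, PDGFRA, MYOG, PTPRC, FABP1, SI, PHGR1 and CD14 fall outside that rule and were named after their values were seen. The genes and lists were chosen with earlier results of these data known.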

Additional observations from a re-analysis of the deposited data

How the results depend on the processing

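With 1 library per group no replicate could be left out, and no paired analysis was possible because no result comes from a test. The number of actin and contractile genes at least 2-fold higher, 13 as reported, was 8 with a pseudocount of 5, 5 after GC correction, 6 when that correction used the median GC content of a gene's transcripts (added after seeing the data), 26 at a threshold of 1.5-fold and 4 at 4-fold. It was 10 after length correction and stayed at 13 with a pseudocount of 0.1. The number lower, 1 as reported, was 0 with a pseudocount of 5, after GC correction and at 4-fold. The percent of all measured genes higher, 16.1 as reported, was 6.59 with a pseudocount of 5, 8.53 with no filter, 7.41 after GC correction, 7.35 with median transcripts, 30.7 at 1.5-fold and 3.66 at 4-fold. With a pseudocount of 0.1 that percent was 21.7, and after length correction 13.5. The percent lower, 5.21 as reported, was 8.72 with a pseudocount of 0.1, 1.87 with one of 5, 2.76 with no filter, 16.1 at 1.5-fold and 0.671 at 4-fold. The median change of the genes, 0.75 as reported, was 0.39 after GC correction, 0.42 with median transcripts and 0.64 after length correction. The share of genes with a CArG box, 23.7% as reported, was 36.8% with 1 mismatch allowed, against 22.3% over all genes.

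Of the 43 genes 31 kept their status under every setting other than the changed fold thresholds, but most of these were not 2-fold different in any. Of the genes reported as 2-fold higher or lower, only MYL9, TAGLN, ZYX and CORO1A kept that call in all of these settings. With a pseudocount of 5, ACTA2, ACTG2, CNN3, CALD1, SRF and MKL1 lost theirs, and after GC correction ACTB, ACTA2, ACTG2, CNN2, CALD1, FLNA, SRF, MKL1 and CAPG did. With median transcripts CALD1 kept its call and TMSB4X gained one. Length correction ended the calls of ACTA2, ACTG2, CNN2 and CNN3 and gave one to MYH9. The factor for TPM scaling was -0.07 on the log2 scale and that for median centring 0.05. Either rescaling ended the call of CNN3 alone, though with TPM scaling the changes of some genes at low levels were larger, at 1.60 for ACTG2, 3.47 for TAGLN and 3.54 for CORO1A. The call of ACTG2 was lost with a filter at 5 FPKM. The Fibroblast marker list has no value with a filter at 5 FPKM, where none of its genes is left. Calls near 2-fold at low FPKM are limited by the unknown number of reads.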

Other observations

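The CArG box was also read over the whole table. Of 147 measured genes with a box in a RefSeq promoter window that were not among the actin and contractile genes, 29 (19.7%) had a 2-fold higher level in the treated FaDu library, and 11 (7.48%) a 2-fold lower one (median change 0.20). Of 9830 measured genes with a promoter and no box, 14.8% were higher and 4.54% were lower (median 0.11). After GC correction 9.72% of the genes with a box were higher, against 6.02% of those without, and the medians were 0.03 and 0.01. These are descriptions of 1 pair of libraries, and the difference was not tested.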
